A study of Mus musculus with 2 samples.

Results

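Complement is a cascade of blood and tissue proteins that tags targets and can end in a membrane pore. In its classical arm the recognition molecule C1q, built from the chains of C1qa, C1qb and C1qc, carries the proteases C1r and C1s, which cut C4 and C2 so that C3 is cleaved and deposited. Serping1 encodes the C1 inhibitor that blocks C1r and C1s, and Cd59a encodes a membrane-anchored protein that stops assembly of the pore. In the brain, C1q is made mainly by microglia, C4 and C3 RNA are known from astrocytes and other cells, and C1q and C3 are known for tagging synapses for removal by microglia.

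The 9 genes described here were picked by gene symbol: C1qa, C1qb, C1qc, C3, C4a, C4b, C2, Serping1 and Cd59a, out of 55536 annotated genes. Total RNA was sequenced from tissue labelled as layer of hippocampus, the layer not being named, of adult male B6CASTF1/J mice. The mice are first-generation hybrids of C57BL/6J and CAST/EiJ, aged 8 to 10 months, with no treatment or altered allele named in the labels. There was 1 group of 2 libraries, each from its own animal (animal 2 gave replicate 1, animal 4 gave replicate 2) and from 300 ng of RNA, with ribosomal RNA reduced, strand kept and ERCC spike-in RNA added. No other condition was sampled, so the comparisons below are between genes, between the transcripts of a gene and between the libraries. The reference transcripts describe the C57BL/6J genome only, and the effect of CAST/EiJ reads on these values was not tested.

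The libraries held 23408838 and 29512441 expected counts on annotated genes in replicates 1 and 2. Levels are given as TPM, in which a count is divided by transcript length and scaled to the same total in every library, so genes can be compared with each other. Each library was quantified by 2 methods, called here the first and the second quantification, and the first also lists a lower and an upper bound for each TPM. The bounds belong to the estimate in 1 library, at a level that is not stated, and do not measure the spread between animals. All 5 hippocampal markers looked up (Prox1, C1ql2, Wfs1, Spink8 and Zbtb20) were at 1 TPM or more in both libraries. Their summed levels were 337.0 and 270.1 TPM in replicates 1 and 2, of which Zbtb20 gave 152.58 and 98.55 TPM. The libraries stood apart in 1 marker list: the 9 choroid plexus genes summed to 17.9 TPM in replicate 1 and 1792 TPM in replicate 2, with no marker at 0 counts in both, and 8 of the 9 were called higher in replicate 2 by the edgeR test between libraries, against 0.372% of all genes tested (Ttr, Folr1, Clic6, Slc4a5, Kl, Kcnj13, Aqp1 and Sostdc1). Ttr, encoding transthyretin, was highest at 8.68 and 1703 TPM, and Otx2, the gene not called, had the lowest mean, at 0.80 and 3.50 TPM, and was called by the second quantification (adjusted p = 0.0176, edgeR). The part of choroid plexus RNA in the complement values was not tested.

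C4a and C4b are neighbouring copies of the C4 gene, and how alike they are decides how well short reads can be assigned to either. C4b lies on chr17:34728380-34743882 and C4a on chr17:34809092-34823464 (mm10, both on the minus strand), 65.2 kb apart. C4b encodes mouse complement C4, and C4a encodes its close relative, the sex-limited protein. Aligned over 5367 bases, the coding transcript C4b-201 and the longest C4a transcript, C4a-207, differed at 207 bases and were 96.1% identical. C4a-207 has no annotated coding part, so the coding part of C4b-201 was used for both. The lines below show the 90-base stretch of it where they differed most, at 14 bases, written 5′ to 3′ on the transcript strand. It is from exon 21 of each gene (chr17:34735430-34735519 for C4b and chr17:34816086-34816175 for C4a). Capitals mark the differing bases.
C4b-201: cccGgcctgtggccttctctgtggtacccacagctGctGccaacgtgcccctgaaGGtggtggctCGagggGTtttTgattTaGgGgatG
C4a-207: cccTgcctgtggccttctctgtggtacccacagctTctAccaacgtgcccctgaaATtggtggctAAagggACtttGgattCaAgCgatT

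At the other extreme, the next line is the start of the longest identical run, 433 bases long, at positions 652 to 1084 of C4b-201. The 90 bases shown cross from exon 5 to exon 6 (chr17:34742006-34742388 in C4b, with the intron between the exons). They hold no base by which a read of C4b can be told from a read of C4a.
C4b-201 and C4a-207: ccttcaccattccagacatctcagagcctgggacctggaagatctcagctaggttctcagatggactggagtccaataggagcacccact

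Of the 4937 ungapped windows of 90 bases in the coding part of C4b-201, 19.4% held no difference and the median window held 2. In windows of 31 bases, 48.8% of those in C4b-201 occurred unchanged in a C4a transcript, and in windows of 100 bases 16.5% did. The differences were unevenly spread: 11 of the 54 bins of 100 bases along C4b-201 had none, and the fullest had 12.

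**Figure D1:**
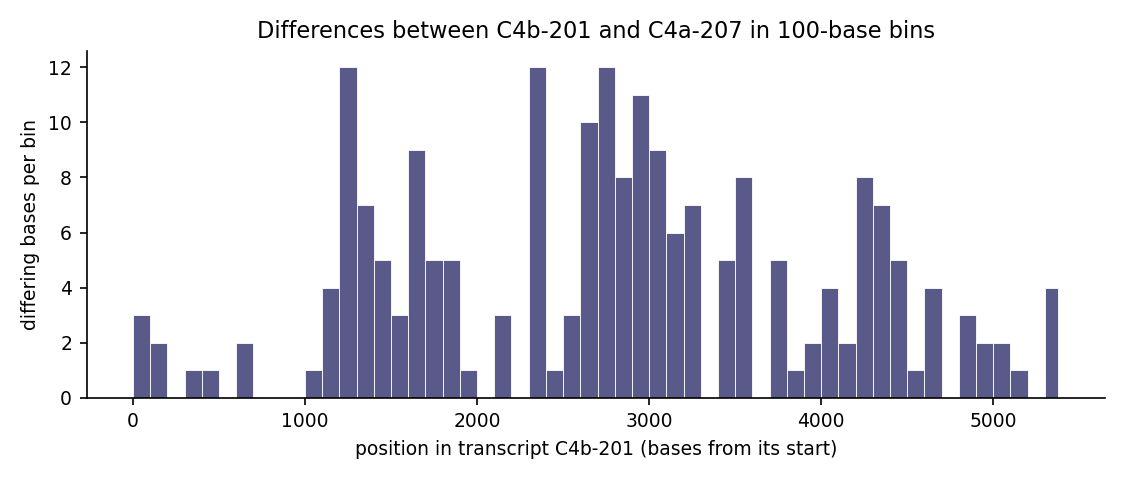
Differing bases between C4b-201 and C4a-207 (vertical axis, bases per 100-base bin) by position along C4b-201 (horizontal axis, bases from the transcript start). The bins run from 0 to 12 differences, with a nearly bare stretch before position 1000.

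Cd59a, which also has a close relative, lies on chr2:104095801-104115354 (mm10, plus strand), 4.61 kb from Cd59b. Over 735 aligned bases Cd59a-201 and Cd59b-201 were 88.7% identical, and each of the 105 ungapped 90-base windows of the coding part held at least 4 differences. The longest identical run, outside the coding part, was 104 bases long. Their most different 90 coding bases, in exon 4 of each (chr2:104113990-104114079 for Cd59a and chr2:104084437-104084526 for Cd59b), are shown because they separate the genes at 32 bases, again in capitals.
Cd59a-201: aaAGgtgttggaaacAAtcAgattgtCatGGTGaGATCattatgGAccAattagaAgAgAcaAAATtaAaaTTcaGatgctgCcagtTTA
Cd59b-201: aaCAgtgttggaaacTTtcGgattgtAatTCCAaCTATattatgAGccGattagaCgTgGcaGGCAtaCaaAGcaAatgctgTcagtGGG

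The 3 C1q chain genes shared no 31-base window with each other. Sequences are from the GENCODE M21 transcripts for mm10.

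Levels of the 9 genes spanned from about 1 to about 30 TPM, with C4b and the C1q chains at the top and C3 and C2 at the bottom. At a cutoff of 1 TPM, 8 of the 9 were detected in both libraries, and C2 was under it in replicate 2. All 9 were detected in both by the second quantification or at a cutoff of 0.5 TPM, and 6 at a cutoff of 2 TPM. Summed, the 9 genes came to 110.1 TPM in replicate 1 and 109.5 TPM in replicate 2, or 0.0120% and 0.0127% of annotated counts. Among 13029 protein-coding genes at 1 TPM or more in both libraries, whose median level was 17.4 TPM, C4b lay above 66.8%, C1qb above 61.2%, C1qa above 56.2% and C1qc above 46.5%. C4a lay above 30.6% of them, Serping1 above 12.2%, Cd59a above 10.8%, C3 above 5.31% and C2 above 1.79%. In tissue RNA, fewer cells of a type and less RNA per cell cannot be told apart.

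**Figure D2:**
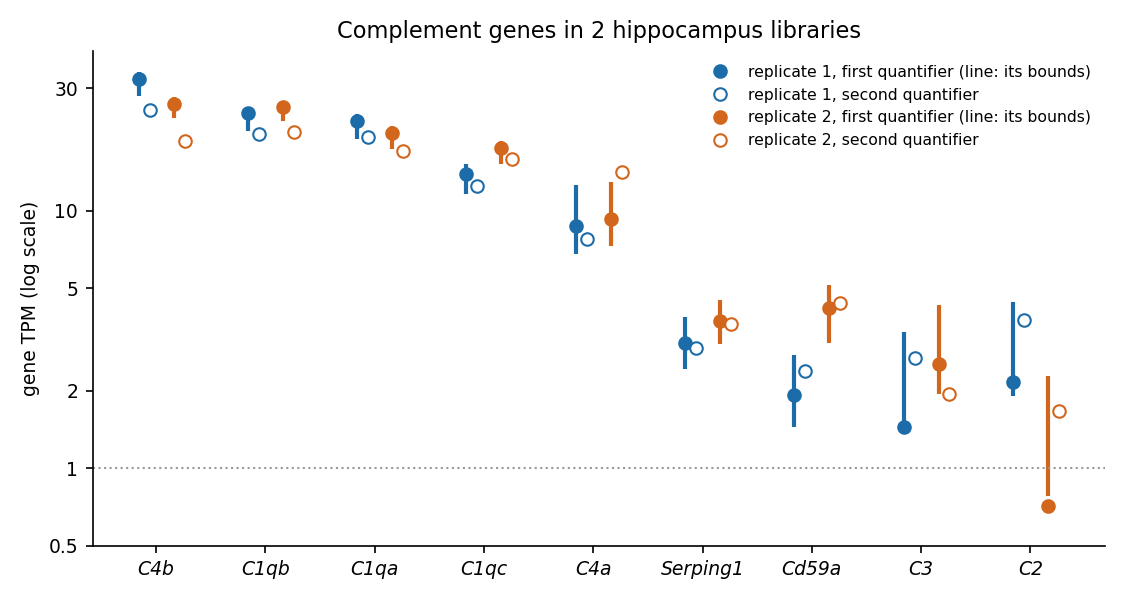
Gene TPM on a log axis for the 9 complement genes, ordered by mean; filled points are the first quantification with its bounds as lines, open points the second, and the dotted line is 1 TPM. C4b and the C1q chains sit between 12.5 and 32.5 TPM, and C2 in replicate 2 (0.71 TPM) is the only value of the first quantification outside its own bounds.

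C1qb, whose product pairs with the C1qa chain, was at 24.0 TPM in replicate 1 (bounds 20.4 to 25.3) and 25.4 TPM in replicate 2 (22.4 to 26.8). C1qa was at 22.4 TPM (19.0 to 23.9) and 20.1 TPM (17.4 to 21.5). C1qc, the third chain, was at 13.9 TPM (11.6 to 15.2) and 17.5 TPM (15.2 to 18.7), with bounds just apart between the libraries. C1qb was above C1qc by 1.72-fold and 1.45-fold in replicates 1 and 2, and this was the only pair of chains whose bounds lay apart in both libraries. C1qa stood apart from C1qc in replicate 1 alone, and C1qb from C1qa in replicate 2 alone. By the second quantification the order was kept, with C1qb at 19.98 and 20.3 TPM, C1qa at 19.3 and 17.1 TPM and C1qc at 12.5 and 15.9 TPM.

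The chain genes lie side by side on the minus strand of chromosome 4 within 18.7 kb (chr4:136880129-136898803), in the order C1qb, C1qc, C1qa. C1qa and C1qb have 1 annotated transcript each. C1qc has 2, of which the coding C1qc-201 took 96.6% and 98.8% of its TPM, at 13.5 TPM (11.2 to 14.7) and 17.3 TPM (15.0 to 18.4) in replicates 1 and 2, so here the bounds of the coding transcript lay apart too. Beside the 10 microglia markers listed, C1qb exceeded 8 in replicate 1 and 7 in replicate 2, and C1qc exceeded 7 in both. The lowest of those markers was Aif1, which encodes IBA1, at 4.08 and 4.20 TPM. Microglia markers summed to 159.4 and 174.5 TPM. Markers of border macrophages, another brain cell that can make C1q, summed to 6.38 and 4.73 TPM over 6 genes, from Mrc1 at 1.57 and 1.61 TPM down to Ms4a7 at 0.18 and 0.27 TPM.

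By the first quantification C4b had the highest gene level of the 9, at 32.5 TPM in replicate 1 (27.9 to 34.5) and 25.9 TPM in replicate 2 (22.9 to 27.8). By the second it was at 24.6 and 18.7 TPM, below C1qb in replicate 2, and its coding transcript alone lay below C1qb and C1qa in both libraries. The bounds of C4b lay apart between the libraries, but this did not come from the coding transcript. C4b-201, 5379 bases long, was at 18.8 TPM (57.8% of the gene) and 18.4 TPM (71.0%). The remaining 13.7 TPM in replicate 1 and 7.52 TPM in replicate 2 were assigned to C4b-203, a retained-intron transcript at 7.09 and 5.45 TPM, and C4b-202, a transcript marked for nonsense-mediated decay at 6.60 and 2.07 TPM. Those are 749 and 763 bases long and rested on 126.7 and 93.5 counts together, so that C4b-201 held 91.7% and 95.2% of the gene's counts. Of their bases, 465 in C4b-203 and 731 in C4b-202 lie inside exons of C4b-201.

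C4a was listed at 8.75 TPM (6.82 to 12.6) and 9.26 TPM (7.33 to 12.9), 3.71-fold and 2.80-fold below C4b in replicates 1 and 2, with bounds apart in both (mean log2 ratio 1.69 ± 0.29, SD, n = 2). The size of that ratio depended on which transcripts carried it. None of the 10 annotated C4a transcripts is typed as protein-coding, and those under 4000 bases took 74.9% and 82.8% of the gene's TPM from 36.6 and 47.8 counts. The leading one, C4a-210, is 354 bases long and was at 2.93 TPM on 10.5 counts in replicate 1 and 5.90 TPM on 28.5 counts in replicate 2. Of its 31-base windows, 62.0% also occur in C4b. Next came C4a-206, a retained-intron transcript, at 2.71 and 0.89 TPM.

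Over transcripts of at least 4000 bases, C4b-201 stood at 18.8 and 18.4 TPM against 2.20 and 1.59 TPM for the 4 long C4a transcripts. That is 8.53-fold in replicate 1 and 11.6-fold in replicate 2 (mean log2 ratio 3.31 ± 0.31, SD, n = 2), a comparison added after the gene values were seen. Of all counts given to either gene, C4a received 11.3% in replicate 1 and 9.28% in replicate 2, and 13.4% and 10.5% by the second quantification. The gene-level ratio of the second quantification was 3.15-fold and 1.32-fold, with C4a at 7.81 and 14.1 TPM. Its long transcripts alone gave 6.69-fold and 9.63-fold. C4b exceeded C4a in every one of these, and the ratios from counts or long transcripts were larger than those from gene TPM.

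Which long C4a transcript received the counts was not settled by the data. The first quantification put 133.7 and 69.7 counts on C4a-203, whereas the second put 0.019 and 0.0014 there. The second put 182.2 counts on C4a-207 in replicate 1 and 4.82 in replicate 2, and 26.8 and 157.1 on C4a-205. The 2 quantifications split the long C4a transcripts differently, and the second also split them differently in the 2 libraries.

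**Figure D3:**
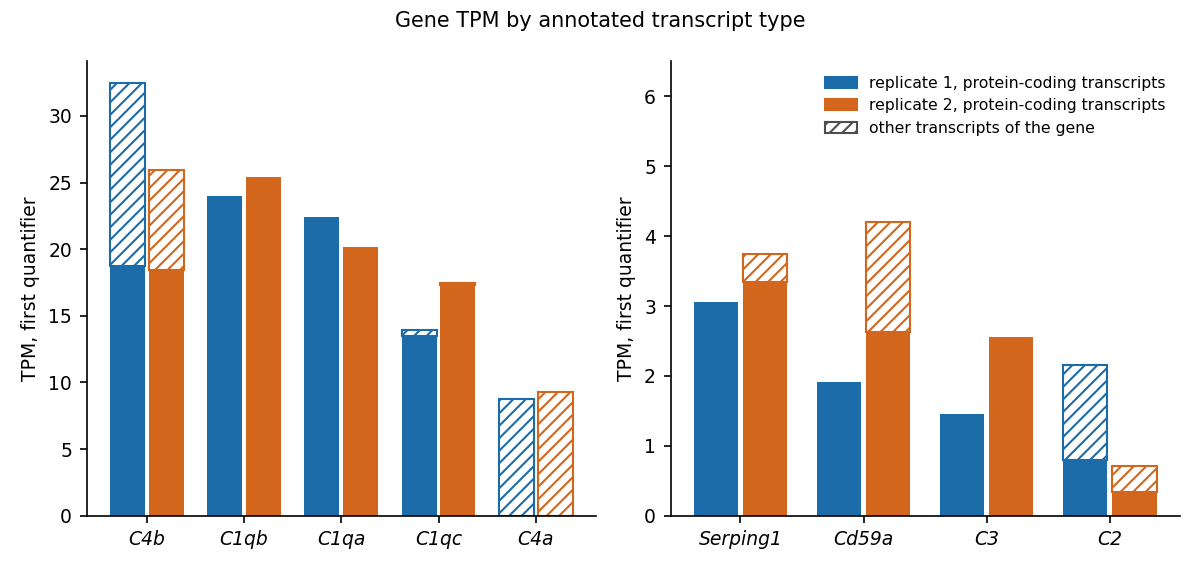
TPM of the first quantification for each gene and library, with protein-coding transcripts as filled bars and all other transcripts of the gene hatched on top. The filled part of C4b is level between libraries (18.8 and 18.4 TPM) while the hatched part is 13.7 and 7.52 TPM, and C4a has no filled part.

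C3, the convergence point of all arms, was far below C4b. Its gene level was 1.45 TPM in replicate 1 (1.45 to 3.38) and 2.54 TPM in replicate 2 (1.95 to 4.32). The full-length transcript C3-201, 5136 bases long, was at 1.45 and 1.64 TPM on 103 and 156.8 counts. The added level in replicate 2 came from C3-203 at 0.56 TPM on 4.81 counts and C3-204 at 0.35 TPM on 1.43 counts, both short and listed at 0 in replicate 1. By the second quantification the gene order between libraries turned, with 2.69 TPM in replicate 1 and 1.95 TPM in replicate 2, while C3-201 was again lower in replicate 1, at 1.11 against 1.41 TPM. In replicate 1, 1.27 of those 2.69 TPM sat on C3-204, from 2.13 counts. C4b exceeded C3 by 22.4-fold and 10.2-fold in gene TPM of the first quantification, by 9.16-fold and 9.60-fold in that of the second, and by 14.8-fold and 11.9-fold in counts of the first.

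C2, the protease partner of C4b in the C3 convertase, had the lowest mean level by the first quantification, though not in replicate 1, where C3 and Cd59a were lower. It was at 2.16 TPM in replicate 1 (1.92 to 4.41) and 0.71 TPM in replicate 2 (0.783 to 2.28), on 33 and 18 counts. Its coding transcripts reached 0.79 and 0.34 TPM, from C2-205 at 0.52 and 0 TPM, C2-201 at 0.21 and 0.17 TPM, C2-206 at 0 and 0.17 TPM and C2-204 at 0.06 and 0 TPM. The non-coding C2-203 was at 0.72 and 0 TPM and C2-207 at 0.65 and 0.36 TPM. The second quantification listed 3.75 and 1.67 TPM, most of it on C2-203 (2.50 and 0.95 TPM). C2 (chr17:34862604-34898265) lies 85 bases from Cfb, and the annotation also has Gm20547, a separate gene model with which C2-201 shares 59.8% of its 31-base windows. Gm20547 received 0 counts in both libraries by the first quantification and 0 and 6.37 by the second. C4b, C4a and C2 lie within 169.9 kb of each other on chromosome 17, in the class III part of the major histocompatibility complex, and C3 lies 22.3 Mb further along it.

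Serping1, the inhibitor of C1r and C1s, was at 3.06 TPM (2.44 to 3.86) and 3.74 TPM (3.04 to 4.49), with 72 and 112 counts. Its main transcript Serping1-201 was at 3.06 and 3.34 TPM, and the 0.40 TPM of Serping1-203, on 6.09 counts, appeared in replicate 2. Cd59a, the inhibitor of the pore, was at 1.92 TPM (1.44 to 2.76) and 4.21 TPM (3.07 to 5.15), so its bounds lay apart between the libraries. Here, too, the coding transcript moved less: Cd59a-201 was at 1.92 and 2.63 TPM, and the processed transcript Cd59a-202 at 0 and 1.59 TPM on 17.5 counts in replicate 2. The second quantification listed Cd59a-201 at 2.38 and 2.17 TPM and Cd59a-202 at 0.0004 and 2.23 TPM. Cd59b was at 0.42 and 0.64 TPM by the first quantification, 4.57-fold and 6.58-fold below Cd59a, and at 2.36 and 1.40 TPM by the second.

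Ordered by mean TPM, the genes ran C4b, C1qb, C1qa, C1qc, C4a, Serping1, Cd59a, C3 and C2. Of the 8 neighbouring pairs in this order, only C4a and Serping1 had bounds apart in both libraries, so within the top 5 and within the bottom 4 the neighbours did not differ beyond their bounds in both. This order is that of the first quantification. By the second, mean Cd59a (3.39 TPM) lay above Serping1 (3.28 TPM) and C2 (2.71 TPM) above C3 (2.32 TPM). Over coding transcripts of the first quantification, mean C4b (18.6 TPM) lay below C1qb and C1qa. Restricted to coding transcripts, 7 genes stayed at 1 TPM or more in both libraries, without C4a and C2.

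A test across all genes then asked which counts differed between the 2 libraries. It was edgeR with TMM scaling, a dispersion trend estimated from the same 2 libraries and Benjamini-Hochberg adjustment, so it compares these libraries and no condition. All 9 complement genes passed the count filter. Of 16123 genes tested, 130 (0.806%) passed an adjusted p of 0.05, 60 higher and 70 lower in replicate 2, and 778 had an unadjusted p under 0.05. None of the 9 complement genes passed by edgeR, and 0 had an unadjusted p under 0.05. At this background no call among 9 genes is the usual outcome, and in simulated data for this comparison the test found 4% of 2-fold changes and 71.2% of 4-fold changes, so differences of the size seen here were mostly not detectable.

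The log2 ratio of counts, replicate 2 over replicate 1, was close to 0 for C4b (0.04 ± 0.21, SE) and C1qa (-0.04 ± 0.35). It was 0.20 ± 0.32 for C1qb and 0.45 ± 0.38 for C1qc, the remaining chains. C3 was at 0.34 ± 0.58, C4a at -0.28 ± 0.47 and Serping1 at 0.32 ± 0.67. The widest ratios belonged to Cd59a (0.83 ± 0.74) and C2 (-1.10 ± 0.98), which had the fewest counts. All 9 had an adjusted p of 1 by edgeR. Among them were C1qc, C4b and Cd59a, the 3 genes whose TPM bounds lay apart between the libraries. The share of all genes with bounds apart between the libraries was not computed. The median over the 9 was 0.20, with 6 above 0, against a median of -0.00 over all genes tested. Scaled to the ERCC spike-ins, the median of all genes was -0.23, and the ratios of C1qb (-0.027) and C4b (-0.19) then lay below 0, leaving 4 of 9 above it.

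**Figure D4:**
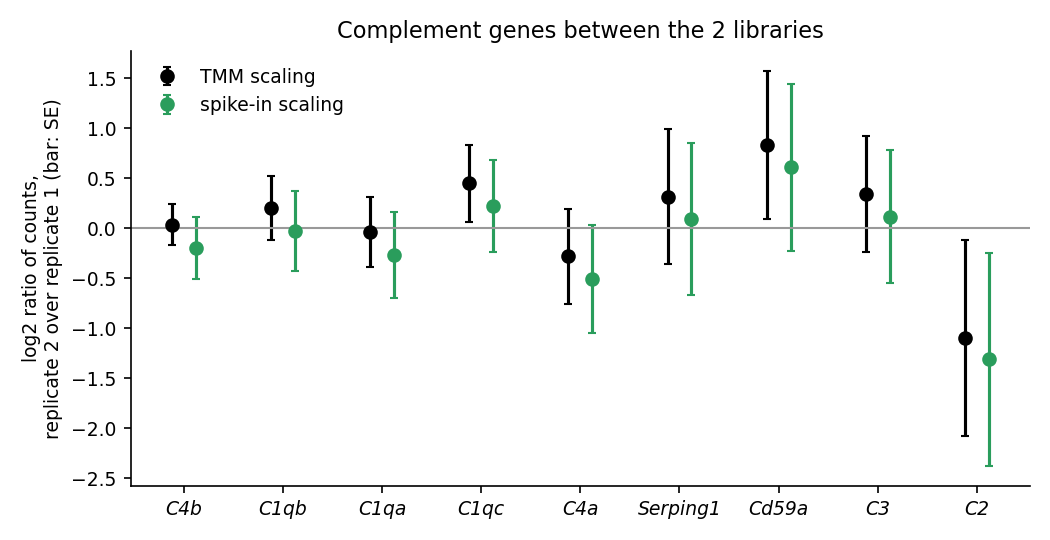
Log2 ratio of counts between replicate 2 and replicate 1 for each gene (points) with its standard error (bars), under TMM scaling and under spike-in scaling. The points run from -1.10 for C2 to 0.83 for Cd59a under TMM scaling, and each spike-in point lies below its TMM point.

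Against the rest of the cascade, the libraries held C1q RNA with little RNA of its proteases. Of 50 other complement genes in 6 lists, 18 were at 1 TPM or more in both libraries, 10 had 0 counts in both, and the other 22 lay between. Of all 22028 protein-coding genes, 13029 were at 1 TPM or more in both. These counts and the values of the lists below are from the first quantification unless stated. A count of 0 allows up to 3 counts, or 0.128 and 0.102 CPM (counts scaled to the library total) in replicates 1 and 2.

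Among the genes that start the classical and lectin arms, 1 of 12 was detected in both libraries. This was Masp1, a protease of the lectin arm, at 4.85 and 5.40 TPM. Masp2, which cuts C4 and C2 in that arm, was at 2.71 and 0.87 TPM on 28 and 16 counts. By the second quantification Masp2 was at 3.05 and 1.05 TPM, at or above 1 TPM in both libraries. C1ra, the C1r gene, was at 0.44 and 0.89 TPM, so that C1qb was 54.5-fold and 28.6-fold above it. C1s1, the C1s gene, was at 0.29 and 0.65 TPM. C1rb, Mbl1, Mbl2 and Colec10 had 0 counts in both libraries.

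In the alternative pathway list, 1 of 3 genes was detected in both libraries: Cfp, which encodes properdin, the stabiliser of the C3 convertase. It was at 11.2 TPM in replicate 1 and 4.90 TPM in replicate 2, a log2 ratio of -1.26 ± 0.56 (SE) with an unadjusted p of 0.0238 and an adjusted p of 0.789 by edgeR. Cfb, the protease of that convertase, was at 0.09 and 0.06 TPM on 3 counts in each library, and Cfd had 0 counts in both. None of the 7 terminal pathway genes, which encode C5 and the pore proteins, was detected in both. C8g was highest at 0.54 and 1.10 TPM. Hc, the C5 gene, was at 0 and 0.30 TPM, C7 at 0.19 and 0.12 TPM, C8a at 0 and 0.06 TPM and C8b at 0 and 0.14 TPM. C6 and C9 had 0 counts in both.

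**Figure D5:**
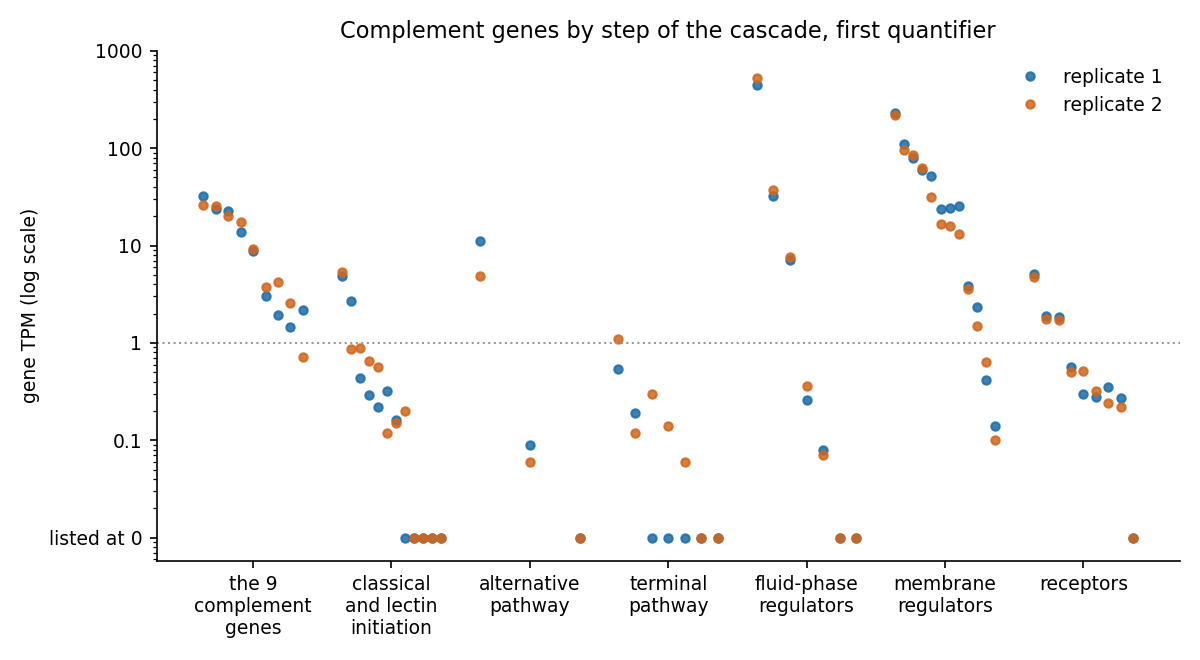
Gene TPM of the first quantification on a log axis for the 9 genes and for 50 other complement genes grouped by step. Each library has a point, and genes are sorted by mean within a group. Values of 0 are placed on the lowest line, and a dotted line is at 1 TPM. The terminal pathway genes lie at or under 1.10 TPM, while Clu reaches 440.4 and 519.7 TPM and 10 of 12 membrane regulators are above the line in both libraries.

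Of the 7 fluid-phase regulators, 3 were detected in both libraries and 2 had 0 counts in both, with a median level of 0.31 TPM. In the fluid-phase list Clu, encoding clusterin, was at 440.4 and 519.7 TPM, and Vtn, encoding vitronectin, at 32.5 and 37.1 TPM. Cfi, whose product cuts C3b and C4b, had 0 counts in both. Of 12 membrane regulators, 10 were detected in both. Sez6l2 led them at 227.3 and 216.5 TPM, then Sez6l at 110.4 and 95.3 TPM, Sez6 at 78.4 and 84.9 TPM and Susd4 at 59.9 and 62.1 TPM; these are neuronal proteins with complement control domains.

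Cr1l, the mouse membrane regulator of C3 and C4 also called Crry, was at 24.3 and 15.8 TPM. Cd55, which breaks up convertases, was at 3.86 and 3.57 TPM, and Cd46 at 2.34 and 1.48 TPM. Cd59b, under 1 TPM in both libraries by the first quantification, was at 2.36 and 1.40 TPM by the second. Csmd1 was at 52.1 and 31.6 TPM, Csmd2 at 25.3 and 13.2 TPM and Csmd3 at 23.7 and 16.7 TPM. Their log2 ratios were -0.39 ± 0.21, -0.66 ± 0.20 and -0.37 ± 0.20 (SE), and none passed by edgeR, with Csmd2 nearest at an adjusted p of 0.0993. Of the 20 other complement genes tested, 0 were called, against 0.806% of all genes. An unadjusted p under 0.05 was reached by 2 of them (Cfp and Csmd2), against 4.83% of all genes.

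Among complement receptors 3 of 9 were detected in both libraries. Itgam and Itgb2, the chains of complement receptor 3 on microglia, were at 5.10 and 4.75 TPM and at 1.85 and 1.70 TPM. Cd93 was at 1.87 and 1.74 TPM. C3ar1, the receptor for C3a, was at 0.35 and 0.24 TPM on 21 and 19 counts, and Vsig4 had 0 counts in both.

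Markers of the other cells that could hold these RNAs differed less in summed level than the choroid plexus list. The 8 astrocyte markers summed to 1870 and 1828 TPM, from Slc1a2 at 856.5 and 797.2 TPM to Aldh1l1 at 21.9 and 21.1 TPM, and 8 genes known to rise in reactive astrocytes to 245.3 and 278.7 TPM, from Gfap at 163.0 and 188.4 TPM to Steap4 at 0.05 and 0.03 TPM. The 7 blood markers summed to 465.4 and 334.4 TPM, from Hbb-bs at 172.3 and 117.7 TPM to S100a9 at 0 counts in both. The 8 fibroblast markers summed to 629.9 and 632.4 TPM, from Ptgds at 539.1 and 497.3 TPM to Col3a1 at 1.71 and 1.04 TPM. Igf2, in the fibroblast list, was the only further marker called between libraries, at a log2 ratio of 1.15 ± 0.21 (SE) with an adjusted p of 2.83e-05 by edgeR. It lost the call under spike-in scaling, at 0.92 with an adjusted p of 0.33. The choroid plexus sum differed 100.3-fold. By TPM of the first quantification, 6 of the 9 complement genes (C1qb, C1qc, C4a, C3, Serping1 and Cd59a) were higher in replicate 2, none of them called. By the counts that were tested, 6 of 9 also lay above 0, against 49.8% of all genes tested. These included C4b (log2 ratio 0.04) in place of C4a (-0.28). By TPM of the second quantification C3 was lower in replicate 2, at 2.69 and 1.95 TPM in replicates 1 and 2.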

How the data were processed

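RNA of tissue labelled as layer of hippocampus from 2 mice was analysed, 1 library each. Per the deposited notes and file headers, the authors made a gene table and a transcript table of expected counts, TPM with bounds, and isoform percent of the gene (columns named as RSEM names them), and a second transcript table of estimated counts and TPM (columns named as kallisto names them), on mm10 with GENCODE M21. The sources used here do not give program versions, the level of the bounds or the read length. The second table was summed per gene here. Expected counts were rounded to whole numbers for the tests.

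Genes with a CPM of 1 or more in at least 1 library (16123) were fitted with edgeR 4.0.16 (TMM, prior count 2, intercept only, residual deviance against chi-square with 1 degree of freedom), in R 4.3.3. The fit takes its dispersion trend from the libraries it compares. It was tested on simulated counts with 200 changed genes over 16123 genes in 5 runs. Alternatives were DESeq2 1.42.0 size factors, ERCC scaling, other filters, a common dispersion and the second quantification. Members counted as apart when the bounds did not overlap, detected at 1 TPM. Transcripts were aligned with Biopython 1.88. Named were all 9 genes, listed complement genes at 1 TPM or more in both libraries, missing subunits, the highest and lowest gene of the cell lists described, and transcripts with at least 10% of a gene's TPM. Some genes that this rule would name are not reported here. Some other genes and transcripts were named after their values were seen, as were the 5 hippocampal markers. The members and lists were chosen with earlier results of these data known.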

Additional observations from a re-analysis of the deposited data

How the results depend on the processing

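C4b exceeded C4a under every alternative tried, but the log2 ratio moved from 1.69 to 1.03 with the second quantification and to 3.13 with expected counts not divided by length. It was 3.31 (first quantification) and 3.0 (second) over transcripts of at least 4000 bases, an alternative chosen after seeing the data, and 1.49 to 1.89 in single libraries. Single libraries gave 2 C1q pairs apart in place of 1 (2 to 2) and 3 neighbouring pairs apart in place of 1 (3 to 3), since a pair then needs bounds apart in 1 library only. With a common dispersion 341 genes were called between libraries in place of 130, and the other alternatives gave 94 to 130. None of the 9 genes was called in any (6 of the 9 were tested with the CPM filter of 5), with a smallest unadjusted p of 0.0372 and adjusted p of 0.539 for C2 under the common dispersion. Spike-in scaling reversed the log2 ratio of C1qb (-0.027) and C4b (-0.19), and 7 of 9 kept their sign; under the other scalings, the second quantification and a prior count of 0.5 all 9 did. The cause of these changes was not tested. Mean TPM moved by more than 1 SD for 5 of 9 genes with the second quantification and for 2 of 9 over coding transcripts. No paired analysis was possible because there was 1 group. Depth limits C2, Cd59a and Serping1 most, at 18 to 112 counts per library.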

Other observations

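The C1q fold is shared by secreted proteins that act at synapses and elsewhere without being complement. Of 12 genes listed for a C1q domain or C1q name outside complement, 10 were at 1 TPM or more in both libraries, and they summed to 272.0 TPM in replicate 1 and 269.5 TPM in replicate 2. C1qtnf4 was highest at 81.5 and 81.9 TPM, followed by C1ql3, which encodes a synaptic organiser, at 66.9 and 62.2 TPM. C1qbp, a mitochondrial protein first named for binding C1q and lacking its fold, was at 51.7 and 52.7 TPM. C1ql2, made by dentate granule cells, was at 31.1 and 34.6 TPM, above C1qb in both libraries. The cerebellins Cbln1, Cbln2 and Cbln4 were at 3.85 and 4.88, 7.12 and 9.08, and 5.37 and 6.34 TPM. C1ql4 was lowest at 0.05 and 0.08 TPM. None of the 10 tested was called between the libraries by edgeR, against 0.806% of all genes, and 9 had a log2 ratio above 0 (49.8% of all genes did), with a median of 0.21. Under spike-in scaling 5 of the 10 lay above 0, with a median of -0.019.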
